A study of Canis lupus familiaris with 186 samples.

Results

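Nuclear oxidative phosphorylation genes were described in mRNA sequencing of primary osteosarcomas from 186 dogs. A gene was a member when its symbol follows the naming scheme of the subunits: NDUF followed by A, B, C, S or V and a number (complex I, with NDUFA4), SDHA to SDHD (complex II), UQCR (complex III), COX with a number from 4 to 8 (complex IV) or ATP5 (complex V). The rule uses names and no measured value. It found 72 of the 37952 genes in the deposited table, with 36 genes for complex I, 4 for complex II, 7 for complex III, 9 for complex IV and 16 for complex V. NDUFA4 is counted with complex IV, the complex it is known to belong to despite its name.

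Oxidative phosphorylation is the process by which mitochondria make ATP. Complexes I and II take electrons from NADH and succinate, complex III passes them through cytochrome c to complex IV, which reduces oxygen, and complex V, the ATP synthase, uses the proton gradient that complexes I, III and IV build. Complexes I, III, IV and V combine subunits encoded in the nucleus with subunits encoded in mitochondrial DNA, whereas complex II is encoded in the nucleus alone. Tumors differ in how far they use this pathway beside glycolysis. Several complex IV subunits have a second, tissue-restricted form, in heart and skeletal muscle, lung or testis.

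The tumors came from pet dogs with appendicular osteosarcoma in the trials COTC021 and COTC022, with 93 dogs from each, and each library is a different dog. Biopsies preceded all treatment, and every dog then underwent amputation and carboplatin, with or without rapamycin. GS-1 is an earlier gene expression signature. The study clustered the same 186 libraries by GS-1 into 58 favorable prognosis (FP) and 128 poor prognosis (PP) dogs, and no member appears in the signature lists given with the study. Disease-free interval (DFI) and overall survival (OS) are counted from diagnosis, with 143 DFI events and 124 OS events. The deposited names of 50 libraries separate their parts by a double low line (__) and those of 136 by a single one (_), called double-style and single-style libraries here. What this style stands for is not given in the sources used here. Double-style libraries held 15803912 to 23214356 counts (median 19440456), against 6587634 to 27420867 (median 9851682) in single-style libraries. The former hold 13 FP and 37 PP dogs, and 18 dogs from COTC021 against 32 from COTC022. Style went with depth, and the part of depth in differences between the styles was not tested. The samples are bulk tissue, so fewer cells of a type and less RNA per cell cannot be told apart in any value below. Osteoblast markers (RUNX2, SP7, ALPL, IBSP and BGLAP) were present, with a summed level of 53.1 to 16720 CPM (counts scaled to the same library total) and a median of 1933.

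Of the 72 members, 69 passed the low-count filter and were tested among 13422 genes. The other 3 were ATP5ME, a small membrane subunit of the ATP synthase, and COX6A2 and COX7B2, tissue-restricted subunits of complex IV. ATP5ME had 0 counts in each of the 186 libraries, which allows at most 3 counts in any of them and counts sampling error only. These counts are of the locus with that symbol, from 109239950 to 109240165 on chromosome X. Whether RNA of this subunit comes from another locus was not examined. The subunits encoded in mitochondrial DNA were not analysed here. Several nuclear ones, such as COX6A1, COX6C, COX7A2, COX7C, ATP5PB and UQCRB, fit the rule but were not found under these symbols. Counts and medians of complexes III, IV and V leave them out. The deposited values are expected counts, in which a read that maps to several genes is divided between them. For 61 members every value was whole, within a tolerance of 1e-06. Values were not whole in 100% of libraries for ATP5MG, 98.4% for ATP5MC2, 87.6% for NDUFA1, 56.5% for NDUFB1 and 36.6% for ATP5F1A. These genes share reads with other loci, and their levels are less certain.

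The 72 genes together took 0.743% of the counts at the median, with 0.37% in the lowest and 1.42% in the highest library. ATP5F1B, the catalytic beta subunit of the ATP synthase, took the most reads, with 414 CPM in the lowest library, 883 at the median and 2001 in the highest. Its partner ATP5F1A, the alpha subunit, ranged from 239.8 to 2051 CPM with a median of 630.5. They were followed by ATP5MC2, a copy of the membrane ring subunit c (median 261 CPM), ATP5PO of the stalk (235 CPM) and ATP5F1C, the rotating gamma subunit (216 CPM). CPM are not divided by transcript length, so this order is one of reads and not of RNA molecules. The lowest medians among the 69 genes were 6.51 CPM for COX4I2, 14.3 CPM for NDUFS7, 15.1 CPM for COX7A1, 23.3 CPM for NDUFC1 and 24.8 CPM for COX5B. Apart from COX4I2, which reached 10 counts in 182 libraries, all 69 genes had at least 10 counts in every library.

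Within complex I, the highest medians were those of NDUFA8 (149 CPM), an accessory subunit, and of the core subunits NDUFS1 (126 CPM) and NDUFV1 (109 CPM), which binds NADH. Other core subunits had medians of 84.3 CPM for NDUFV2, 47.8 CPM for NDUFS8, 34.7 CPM for NDUFS3 and 14.3 CPM for NDUFS7. In complex II, SDHA, the flavoprotein that oxidizes succinate, had 83.0 CPM in the lowest library, 188 at the median and 581 in the highest. SDHC and SDHD, the membrane anchors, had medians of 121 and 109 CPM, and SDHB, the iron-sulfur subunit, 82.8 CPM, just under the lowest value of SDHA. In complex III, the core proteins UQCRC2 and UQCRC1 had medians of 163 and 112 CPM and the Rieske iron-sulfur protein UQCRFS1 106 CPM, while the small subunits UQCR10, UQCRQ and UQCR11 had 46.4, 34.9 and 31.8 CPM. COX5A of complex IV had a median of 77.0 CPM. The ranges of genes next to each other in this order overlapped.

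**Figure D1:**
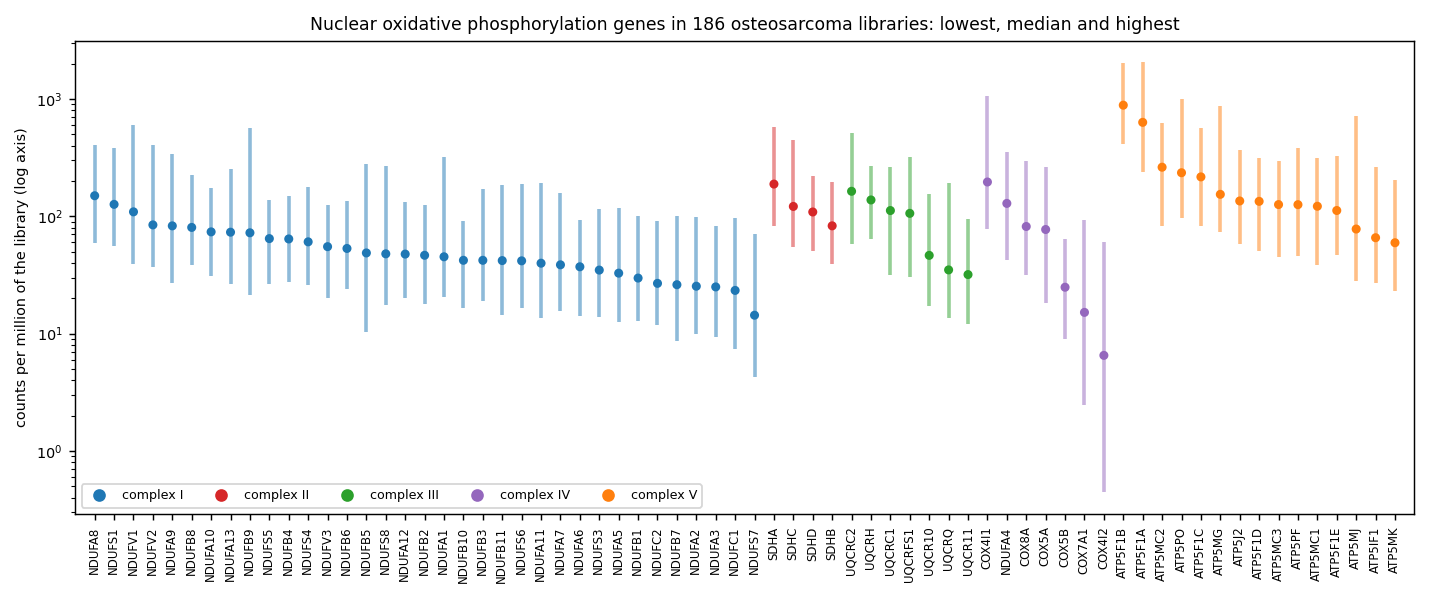
CPM (log axis) of 68 of the 69 genes that passed the filter, in 186 libraries. The line runs from the lowest to the highest library and the point is the median, coloured by complex. The medians run from 6.51 CPM for COX4I2 to 883 CPM for ATP5F1B.

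The tissue-restricted subunits of complex IV differed from each other in level and in the markers they went with. COX6A2, the form of subunit 6A known from heart and skeletal muscle, had 0 counts in 36 libraries and a median of 0.389 CPM, with 10 or more counts in 61 libraries. It reached 278.8 CPM in 1 library, COTC022 replicate 68, a double-style library from a PP dog. That library had the highest summed skeletal muscle markers of all 186, with 80940 CPM for 12 genes against a median of 52.1, of which ACTA1, skeletal actin, took 24580 CPM, CKM, muscle creatine kinase, 20350 CPM and MYH7, a slow muscle myosin, 16520 CPM. The next highest COX6A2 level was 85.4 CPM in COTC021 replicate 45, which was also second in muscle markers with 26310 CPM. Over all libraries, log2(CPM + 1) of COX6A2 and of the summed muscle markers correlated with r = 0.826 (n = 186), and with r = 0.813 without COTC022 replicate 68. COTC022 replicate 68 also held the highest level of 17 of the 69 tested genes, more than any other library, and results that rest on it are given with and without it.

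COX7A1, the heart and muscle form of subunit 7A, behaved differently. It had 2.45 CPM in the lowest library, 15.1 at the median and 93.1 in the highest, again COTC022 replicate 68. Its correlation with the summed muscle markers was r = 0.113 over all libraries and r = 0.038 without that one, so its level in the other tumors hardly went with muscle markers. COX4I2, the lung form of subunit 4 that is known from pericytes and smooth muscle, ranged from 0.443 to 60.4 CPM. It correlated with summed endothelial markers (r = 0.431) and with summed pericyte and smooth muscle markers (r = 0.404), and hardly with its ubiquitous partner COX4I1 (r = 0.013, n = 186 each). COX7B2, a testis form, had 0 counts in 121 libraries and at most 3.47 CPM. COX4I1 and COX8A, the ubiquitous forms of subunits 4 and 8, had medians of 195.6 and 81.7 CPM.

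Members varied less between dogs than most genes did. The SD of log2 CPM over the 186 libraries had a median of 0.508 over the 69 genes and 0.616 over the 13422, and 59 members lay below the latter. The most even were NDUFV2, a subunit of the NADH-binding part of complex I (SD 0.374), and SDHD, a membrane anchor of complex II (SD 0.376). COX4I2 was the most variable at 1.25, above 85.8% of all tested genes. COX7A1 (0.78), NDUFB9 (0.742), NDUFS7 (0.741) and NDUFA11 (0.687) came next. NDUFB9, an accessory subunit of complex I, had 21.1 CPM in the lowest library, 72.2 at the median and 562 in the highest.

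The members varied together from dog to dog. Over the 2346 pairs of members, the median Pearson correlation of log2 CPM was 0.397, against -0.0035 over all pairs of tested genes, and 20 pairs were below 0. A correlation above 0.5 was found in 21.8% of member pairs and 0.404% of all pairs. The median was 0.43 within the double-style libraries, 0.396 within the single-style libraries and 0.38 without COTC022 replicate 68. The 186 points share depth, tissue makeup and RNA quality, so these values are a description. The mean z-score of the 69 genes (the score below) had r = -0.075 with the log2 library total and r = -0.078 with the TMM scaling factor.

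Membership of the same complex made little difference to the correlation. Its median was 0.41 for pairs within a complex and 0.391 for pairs from different complexes. Within complex V it was 0.443, within complex I 0.403 and within complex III 0.394. Complex IV had 0.288 and complex II, whose subunits also serve the tricarboxylic acid cycle, 0.277 over 6 pairs. Pairs of a complex I and a complex V gene had a median of 0.427 and those of a complex III and a complex V gene 0.436, both above that within complex I. Pairs of a complex I and a complex II gene had 0.263.

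The genes most in step with the others came from complexes I and V. The highest mean correlation with the other members was that of NDUFB8 (0.498), followed by ATP5F1C (0.491), ATP5MC1 (0.476), NDUFA8 (0.473) and NDUFB1 (0.473). The lowest was that of COX4I2 (0.074). Among the next were NDUFS1 (0.135), a core subunit of complex I, and SDHD (0.203) and SDHA (0.213) of complex II. NDUFS1, the largest subunit of complex I, holds iron-sulfur clusters, and its lowest pair was with ATP5MG (r = -0.119). NDUFA4 had a mean correlation of 0.462, and its highest pair was with NDUFA5 (r = 0.745). ATP5IF1, the inhibitor of the ATP synthase, had 0.464 and correlated most with NDUFC1 (r = 0.759) and ATP5F1C (r = 0.745).

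**Figure D2:**
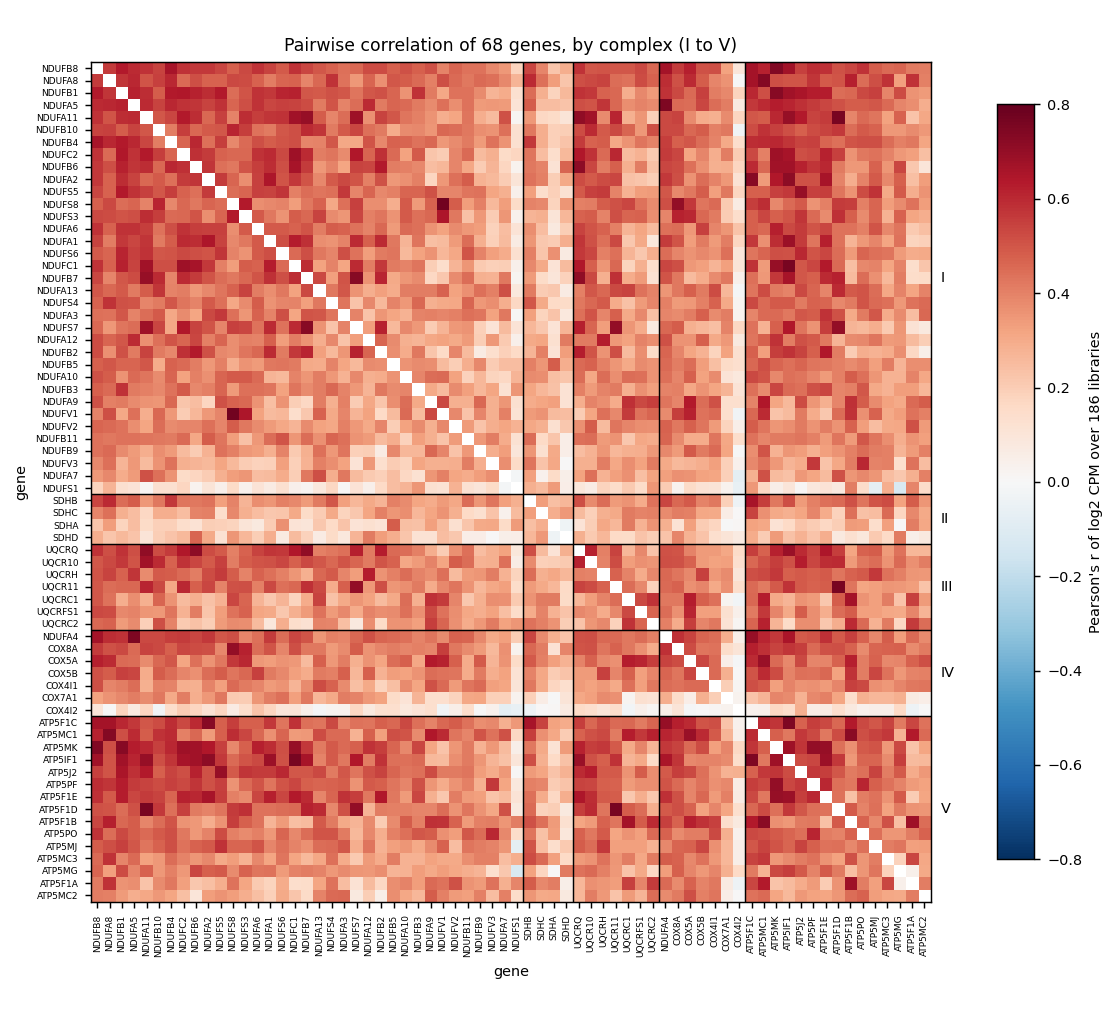
Pearson's r of log2 CPM over 186 libraries for each pair of 68 of the 69 genes, red above 0 and blue below, grouped by complex and ordered within each complex by mean correlation with the others. The pale rows are COX4I2 (mean r 0.074), NDUFS1 (0.135), SDHD (0.203) and SDHA (0.213).

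All but 1 of the 10 highest correlations joined genes on the same chromosome, the exception being ATP5IF1 with NDUFC1 (r = 0.759). Some of these pairs start close together and others far apart. ATP5MC1 and NDUFA8 (r = 0.737) start 35.4 Mb apart on chromosome 9, and ATP5F1C and ATP5IF1 (r = 0.745) 44.2 Mb apart on chromosome 2. The starts of 6 member pairs lie within 1 Mb of each other, and the median correlation of these pairs was 0.704. The highest of all pairs was NDUFS8 with NDUFV1 (r = 0.772), both of complex I, which start 0.0861 Mb apart on chromosome 18 (50299726 to 50303986 and 50385813 to 50391415 in the GSD_1.0 assembly). On chromosome 20, UQCR11 (57757694 to 57759888), NDUFS7 (57911449 to 57916852) and ATP5F1D (58028376 to 58030908) belong to complexes III, I and V and correlated with each other at 0.702 to 0.76. A further pair, NDUFS6 and SDHA on chromosome 34, starts 0.947 Mb apart and had r = 0.365.

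To see how far position went with the level of a gene, each gene was also set beside its chromosomal neighbours, the 10 nearest tested genes on each side. The median correlation with these neighbours was 0.207 over the members and 0.178 over 13400 genes. Above the 90th percentile of all genes (0.334) were 15 of the 69 members, a larger share than among all genes. NDUFS7 had a median neighbour correlation of 0.525 and ATP5F1D of 0.493. NDUFB5 on chromosome 34 had 0.428, NDUFA13 on chromosome 20 had 0.426 and NDUFB9 on chromosome 13 (23040099 to 23047497) had 0.413. NDUFS1 had a higher median correlation with its neighbours (0.363) than mean correlation with the other subunits (0.135). NDUFA8 (0.0075), ATP5MC1 (0.0032) and NDUFB1 (-0.022), all among the 5 genes with the highest mean correlation with the members, had neighbour correlations near 0. Copy number was not measured in these files.

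**Figure D3:**
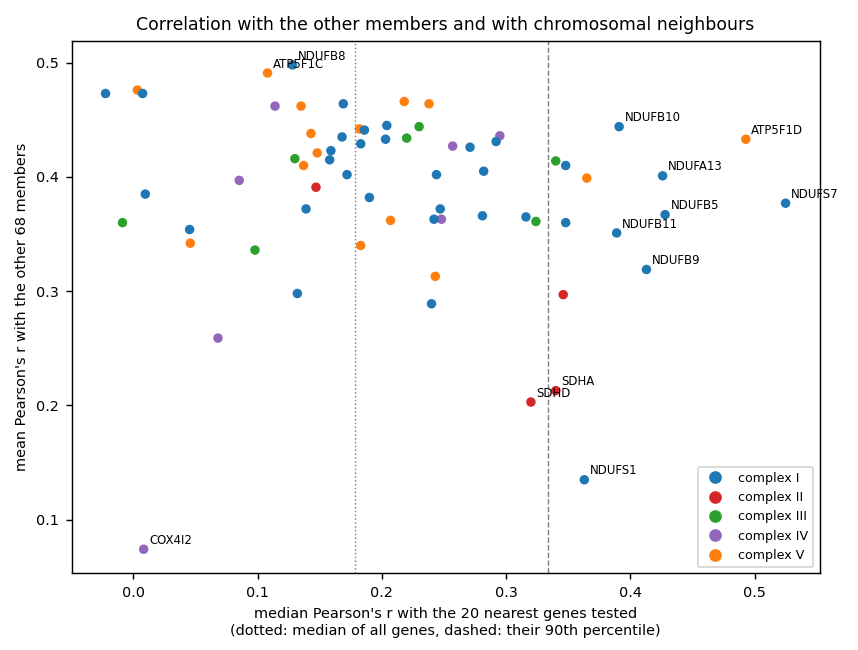
Median Pearson's r with the 10 nearest tested genes on each side (x axis) and mean Pearson's r with the other members (y axis) for 68 of the 69 genes, coloured by complex. The dotted line is the median (0.178) and the dashed line the 90th percentile (0.334) of all genes with a position. NDUFS7 and ATP5F1D lie farthest to the right, and NDUFS1 is low on the y axis and right of the dashed line.

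The wider pathway followed the same pattern to different degrees. Among genes outside the name rule that belong to the chain, NDUFAB1, the acyl carrier protein bound to complex I, correlated with the score at 0.781, CYCS, cytochrome c, at 0.641 and CYC1, cytochrome c1 of complex III, at 0.606 (n = 186). NDUFA4L2, a relative of NDUFA4 known to rise in hypoxia, had r = -0.129. The mean z-score of 18 complex I assembly factors correlated with the score at 0.782, of 10 assembly factors of complexes II and III at 0.784, of 16 of complex IV at 0.703 and of 5 of complex V at 0.485. The 15 genes of the tricarboxylic acid cycle had r = 0.618 and the 16 of glycolysis r = 0.304. Skeletal muscle markers had r = 0.174 (0.107 without COTC022 replicate 68), leukocyte markers r = -0.069 and pericyte and smooth muscle markers r = -0.331. Endothelial markers had r = -0.249, osteoclast markers 0.195 and osteoblast markers 0.159. Proliferation genes had r = 0.271, with 0.388 in the single-style and -0.043 in the double-style libraries.

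Regulators of mitochondrial biogenesis as a group had r = 0.226 with the score (12 genes). TFB2M, a transcription factor of mitochondrial DNA, had r = 0.566, and ESRRA, a nuclear receptor that activates respiratory genes, r = 0.452. TFB1M, which methylates mitochondrial ribosomal RNA, had r = 0.338 and POLRMT, the mitochondrial RNA polymerase, r = 0.272. NRF1 (r = -0.039), GABPA (r = -0.117) and TFAM (r = 0.043), which are known to drive nuclear and mitochondrial respiratory genes, had values near 0 at the RNA level. PPRC1, a coactivator, had r = -0.305.

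Outside the members, 10 of 13353 genes were most like the score. They include CHCHD2, a mitochondrial protein that also regulates a complex IV gene (r = 0.792), MRPL12 of the mitochondrial ribosome (0.789), NDUFAB1 (0.781), PAM16 of the import motor (0.741), TXNL1, a thioredoxin-like protein (0.734), PFDN6, a prefoldin subunit (0.73), and ATOX1, a copper chaperone (0.718), beside 3 genes with a LOC name. The lowest correlations were those of WDFY3 (-0.657), GTF3C4 (-0.632) and ASH1L (-0.629). Members are short genes, with a median span of 7.4 kb against 25.4 kb for the tested genes with a position. Over 13331 genes outside the set, the Spearman correlation between gene span and correlation with the score was -0.442. Short genes thus tended to follow the score in these libraries, and the part of gene length in the co-expression was not tested.

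Between the GS-1 clusters, 14 members were lower in FP, a share near that of all genes, and 1 was higher, a share under that of all genes. By limma-voom with the trial as covariate, the 14 lower members were 20.3% of 69 at an adjusted p under 0.05, against 19.3% of all tested genes, and the 1 higher member was 1.45% against 18.7%. In either direction the share was 21.7% of members and 37.9% of genes. The median log2 fold change was -0.12 over the members and -0.03 over all genes, and 55 members had a value below 0 (49 without COTC022 replicate 68). Among the genes called, 7 of the 14 lower ones belong to complex I, 5 to complex V and 1 each to complexes III and IV.

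COX7A1 had the largest difference. It ranged from 2.45 to 43.3 CPM (median 12.4) in FP and from 5.2 to 93.1 CPM (median 16.7) in PP. The ranges overlapped, and the log2 fold change was -0.51 ± 0.12 (SE, adjusted p = 0.00034). Summed skeletal muscle markers had medians of 86.1 CPM in FP and 45.1 in PP, and 0 of the 12 were called by limma-voom, with 1 at an unadjusted p under 0.05.

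Complex I genes followed. NDUFS5, an accessory subunit, had 26.3 to 125 CPM (median 52.9) in FP and 28.5 to 138 (median 67.8) in PP, and differed by -0.32 ± 0.07 on the log2 scale (SE, adjusted p = 0.000251). NDUFB9 had -0.35 ± 0.11 (adjusted p = 0.0102), NDUFS6, which is needed for a late step of assembly, -0.29 ± 0.10 (adjusted p = 0.0133) and NDUFV3 of the NADH-binding part -0.27 ± 0.07 (adjusted p = 0.00048). UQCRH, the hinge protein of complex III, had 64.5 to 188 CPM (median 122) in FP and 65.6 to 266 (median 146.5) in PP, a difference of -0.26 ± 0.06 (adjusted p = 0.000316). For each of these genes the ranges of FP and PP overlapped.

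In complex V, ATP5PO (-0.26 ± 0.07, adjusted p = 0.00178), ATP5PF (-0.22 ± 0.08, adjusted p = 0.0197), both of the stalk, ATP5MC1 (-0.20 ± 0.08), ATP5F1A (-0.17 ± 0.06) and ATP5F1B (-0.16 ± 0.07) were lower. ATP5MC1 and ATP5F1B were at adjusted p = 0.0464 and 0.0481, and were no longer called without COTC022 replicate 68, which left 13 members called. NDUFB2, an accessory subunit of complex I, was the only member called as higher in FP, with 17.9 to 124 CPM (median 55.4) in FP and 20.0 to 109 (median 42.2) in PP. Its log2 fold change was 0.24 ± 0.09 (adjusted p = 0.02). None of the 4 complex II genes was called, with log2 fold changes from -0.17 for SDHB (adjusted p = 0.0539) to 0.13 for SDHC (adjusted p = 0.151). NDUFA4 (0.02 ± 0.09) and ATP5IF1 (0.02 ± 0.10) had intervals of the fold from 0.901 to 1.15 and from 0.886 to 1.16.

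Several groups of cell type markers and the proliferation genes moved with the clusters, and other groups did not or were mixed. All 9 tested leukocyte markers were higher in FP, and the median of their log2 fold changes was 2.06. The study made the clusters from these same libraries and generally describes them as immune hot and immune cold. The leukocyte difference is thus not independent of the grouping. Summed leukocyte markers ran from 463 to 5841 CPM in FP and from 63.8 to 1104 in PP. Of 5 osteoblast markers, 4 were lower in FP, with summed medians of 1288 CPM in FP and 2292 in PP. Of 6 osteoclast markers, 0 were called. Among 8 pericyte and smooth muscle markers, 2 were higher and 2 lower, and among 4 endothelial markers 2 were higher. Of 7 proliferation genes, 4 were lower, and the median over the 7 was -0.40. Their part in the lower level of the called members was not tested. Glycolysis genes were lower in FP in 4 of 16 cases (SLC2A1, GPI, ALDOA and GAPDH), with a median of -0.17, and the tricarboxylic acid cycle in 2 of 15 (MDH2 and PDHA1), with a median of -0.09. Of 12 regulators of mitochondrial biogenesis, 5 were lower. Assembly factors of complexes I to IV were lower in 12 cases of 44, for example ECSIT (-0.36 ± 0.09, adjusted p = 0.000568) and COX19 (-0.32 ± 0.08, adjusted p = 0.000893).

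Within COTC021, 3 members were lower in FP and called (NDUFS5, NDUFV3 and UQCRH), with 20.8% of all genes called in either direction, and within COTC022 7 were, with 18.8% of all genes. Within the double-style libraries 4 were called (10.1% of all genes), with a median log2 fold change over the 69 genes of -0.25, and within the single-style libraries 7 (25.7% of all genes), with -0.08. NDUFB11 (-0.23 ± 0.09, adjusted p = 0.0376 by limma-voom) was not called by DESeq2 (adjusted p = 0.131) or edgeR's quasi-likelihood test (adjusted p = 0.143), and ran from -0.06 within COTC021 to -0.41 within COTC022. Interaction tests between cluster and library name style, and between cluster and trial, called 0 of the 69 members and 0 of all genes (0.0%). At an unadjusted p under 0.05 there were 8 members for style (11.6% against 6.88% of all genes) and 3 for trial (4.35% against 2.96%). These interactions were fitted with limma-voom alone.

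**Figure D4:**
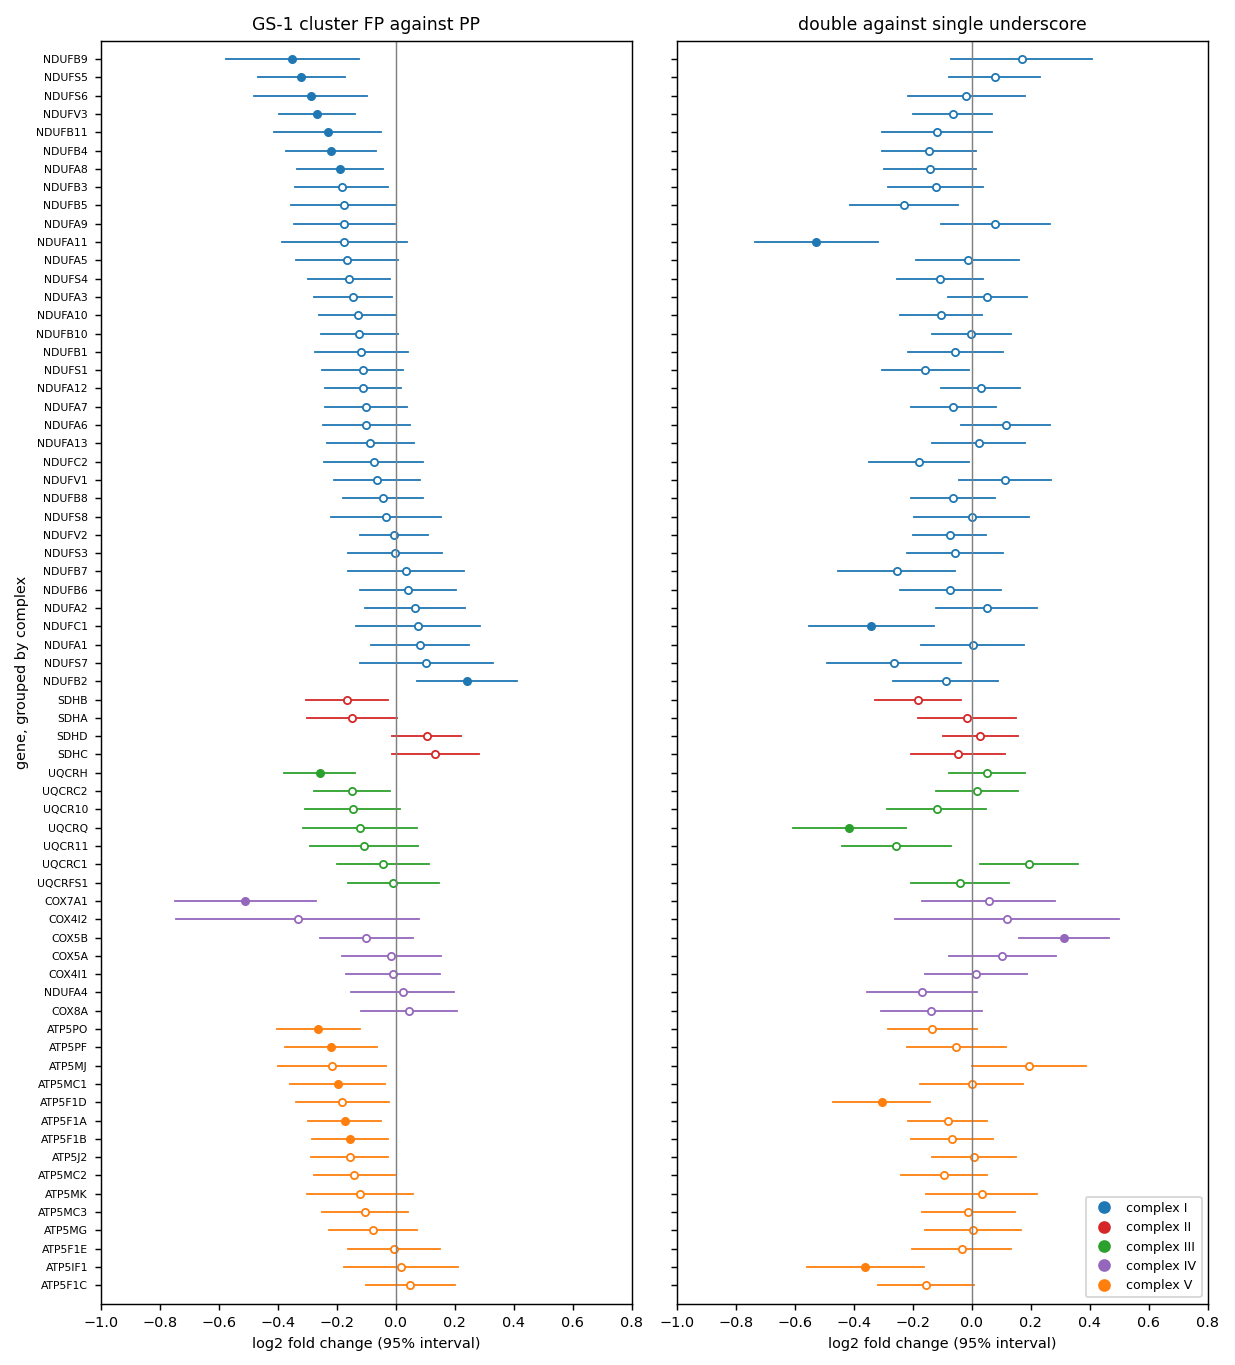
Log2 fold change with 95% interval of 68 of the 69 genes for the GS-1 cluster (left, FP against PP) and the library name style (right, double-style against single-style), by limma-voom. Filled points have an adjusted p under 0.05. On the left, 14 filled points lie below 0 and 1 above. On the right, 5 lie below 0 and 1 above, with NDUFA11 the farthest left.

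Fewer members were called for the library name style. By limma-voom with trial and cluster as covariates, 6 members (8.7% of 69) were called, against 4.72% of all genes. Lower in the double-style libraries were 5 (7.25% against 2.62%) and higher was 1 (1.45% against 2.1%). None of the 6 was among the 15 called for the cluster. This overlap was not tested, and the overlap over all genes was not counted. NDUFA11, an accessory subunit of complex I, had 14.2 to 94.9 CPM (median 30.2) in double-style and 13.4 to 191 (median 44.1) in single-style libraries, a log2 fold change of -0.53 ± 0.11 (adjusted p = 0.000377). UQCRQ of complex III had 13.5 to 85.8 CPM (median 28.2) against 15.9 to 190 (median 38.6), with -0.41 ± 0.10 (adjusted p = 0.00328). All ranges overlapped.

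ATP5IF1 (-0.36 ± 0.10, adjusted p = 0.0187), NDUFC1 (-0.34 ± 0.11, adjusted p = 0.0431) and ATP5F1D (-0.30 ± 0.08, adjusted p = 0.0165) were lower as well. COX5B, a subunit of complex IV that binds zinc, had 15.5 to 60.3 CPM (median 29.8) in double-style and 8.89 to 64.3 (median 24.0) in single-style libraries, and was higher by 0.31 ± 0.08 on the log2 scale (adjusted p = 0.00567). COX4I1 (0.01 ± 0.09) and the 4 SDH genes (-0.18 to 0.03) were not called. Within COTC021 0 members were called for style by limma-voom, with 9 at an unadjusted p under 0.05, and within COTC022 1 was called, NDUFA11, with 8. In the limma-voom fit over both trials, 21.7% of members and 18.8% of all genes were under that p. The shares of all genes within a trial are not given here. Without COTC022 replicate 68, UQCR11 was called in addition. None of the leukocyte, osteoblast, muscle or endothelial markers was called for style.

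Between the trials, 0 of the 69 members were called by limma-voom, against 0.0149% of all genes. By the same test 15 members (21.7%) had an unadjusted p under 0.05, against 12.2% of all genes. Of the members 65 had a higher fitted level in COTC022, with a median log2 fold change of 0.10 against 0.00 over all genes. The members are correlated, so this count is not 65 independent values. NDUFB1 (0.28 ± 0.08, adjusted p = 0.115) and UQCR11 (0.29 ± 0.09, adjusted p = 0.143) had the smallest p-values. Both were called by edgeR's quasi-likelihood test (adjusted p = 0.00667 and 0.0259) and by DESeq2 (0.00975 and 0.0217), which called no other member. The share of 0.0149% is that of limma-voom, and the shares of all genes called by edgeR and DESeq2 are not given here.

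Higher levels of 8 members went with a shorter disease-free interval. In Cox models stratified by trial, fitted gene by gene to standardized log2 CPM, these 8 (11.6% of 69) had a higher hazard at an adjusted p under 0.05, against 6.28% of all genes, and none a lower one, against 6.17%. In either direction the share of genes was 12.4%. The hazard ratio per SD was above 1 for 65 of the 69 members, with a median of 1.14 against 1.0 over all genes, but the members are correlated and most were not called. Complex I gave 5 of the 8, complex V the other 3.

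ATP5MJ, a small membrane subunit of the ATP synthase, had the smallest p-value, with a hazard ratio of 1.29 per SD (95% interval 1.11 to 1.52, adjusted p = 0.0208). NDUFS6 had 1.29 (1.1 to 1.51, adjusted p = 0.0234) and NDUFB11 the highest ratio, 1.33 (1.11 to 1.59, adjusted p = 0.0265). The others called were ATP5F1A (1.31), NDUFS4 (1.28), NDUFS5 (1.26), NDUFB5 (1.26) and ATP5J2 (1.25), with adjusted p from 0.0353 to 0.0479. The hazard of NDUFB5 was not proportional over time (p = 0.00642), so its ratio is an average over follow-up. ATP5F1A, ATP5J2 and NDUFB5 are among the genes with values that were not whole, in 36.6%, 26.9% and 18.8% of libraries. NDUFB11, NDUFS5, NDUFS6 and ATP5F1A were also among the members lower in FP by limma-voom (NDUFB11 not by DESeq2 or edgeR), which is 4 of the 8 called for DFI and 4 of the 15 called for the cluster. The same dogs gave the cluster and the DFI, with events in 41 of 58 FP and 102 of 128 PP dogs, so these counts are not independent. The overlap over all genes was not counted here either.

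None of the 8 calls held when the baseline hazard was also stratified by library name style or by GS-1 cluster, where 0 members were called, with 23 and 13 at an unadjusted p under 0.05 by the same Cox test. Of all genes, 3.92% and 1.6% were called in these fits. In the Cox fit stratified by trial alone, 31.9% of members and 29.1% of all genes had an unadjusted p under 0.05. Such shares of all genes are not given for the other DFI fits. The hazard ratios of the 8 members were 1.19 to 1.31 with strata of trial and style (adjusted p = 0.0535 to 0.176) and 1.19 to 1.28 with strata of trial and cluster (adjusted p = 0.119 to 0.228). The median hazard ratio in these fits stayed above 1, and 65 and 64 members had a ratio above 1. Within the double and within the single-style libraries 0 were called as well, with 10 and 12 at an unadjusted p under 0.05, and 0.0% and 0.0596% of all genes were called there. Without COTC022 replicate 68, ATP5MC1 and NDUFB9 were called in addition, 10 in all. Among other groups of genes, 6 of 7 proliferation genes had a higher hazard (median ratio 1.38), as had 4 of 18 complex I assembly factors and 1 of 16 glycolysis genes, HK2. Of 9 leukocyte markers, 4 had a lower hazard (median ratio 0.819). The part of these in the members' hazard ratios was not tested.

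For overall survival, 0 members were called in the Cox models, against 2.16% of all genes (1.1% with a higher and 1.06% with a lower hazard). At an unadjusted p under 0.05 were 11 members, or 15.9%, against 21.9% of all genes. The direction was the same as for DFI in most members, with a hazard ratio above 1 for 64 of 69 and a median of 1.12, but the outcomes are of the same dogs. NDUFB9 had the smallest p-value, with a hazard ratio of 1.34 (95% interval 1.12 to 1.60, adjusted p = 0.0541). ATP5MJ had 1.31 (1.1 to 1.55, adjusted p = 0.0623) and NDUFS4 1.32 (1.1 to 1.58, adjusted p = 0.0696). The succinate dehydrogenase genes ran from 0.977 for SDHD (0.825 to 1.16) to 1.21 for SDHB (1.00 to 1.45). COX7A1, the member with the largest difference between the clusters, had 1.03 (0.87 to 1.21) for OS and 1.04 (0.886 to 1.21) for DFI.

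**Figure D5:**
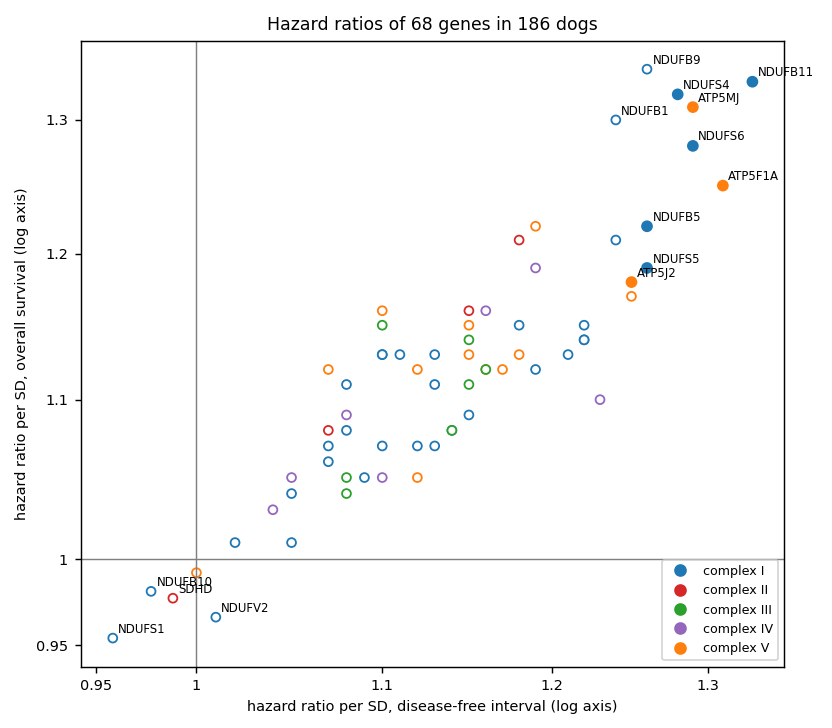
Hazard ratio per SD of log2 CPM for disease-free interval (x axis) and overall survival (y axis), both on log axes, for 68 of the 69 genes in 186 dogs, from Cox models stratified by trial. Filled points (8 genes) have an adjusted p under 0.05 for DFI, and none has for OS. Most points lie above 1 on both axes, and NDUFS1, SDHD and NDUFB10 lie below 1 on both.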

How the data were processed

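RNA of 186 primary tumors was sequenced from stranded mRNA libraries. The authors mapped the reads to GSD_1.0 with STAR 2.7.0f, quantified genes with RSEM 1.3.1 and deposited expected counts, not normalized, which were rounded here (3.07% of values were not whole). Totals of 6587634 to 27420867 counts limit the precision of low genes, and 12 other columns were not used. Groups are the trials in the labels. GS-1 clusters, DFI and OS were read from the study's supplementary list of dogs. Members and gene lists were chosen with earlier results of these data known, and named genes are those with the largest changes, smallest p-values or extreme levels, SDs and correlations, the tissue-restricted forms, NDUFA4, ATP5IF1 and the SDH genes.

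Genes were kept with filterByExpr of edgeR 4.0.16 (large.n 5, min.prop 0.5 and a min.count of 10) and fitted with limma 3.58.1 voom on TMM-normalized counts in R 4.3.3. DESeq2 1.42.0 and edgeR's quasi-likelihood fit were alternatives. Hazard ratios are from Cox models (two-sided Wald test) on log2 CPM (TMM, prior count 2), fitted with survival 3.8.3. P-values were Benjamini-Hochberg adjusted over all genes tested (13422, or 30014 without the filter). Gene positions are from RefSeq for GSD_1.0, where all 72 symbols matched. Correlations and figures used Python 3.11.15. Scripts for the fits were tested on simulated data. No 2 libraries were identical. P-values measure the spread between dogs. Counts and medians cover all 69 tested members, of which 1 is not reported here singly.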

Additional observations from a re-analysis of the deposited data

How the results depend on the processing

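No paired analysis was possible because replicate numbers are names given in the order of the samples, and each library is a different dog. For the GS-1 cluster, 15 members were called (21.7%, against 37.9% of all genes). The count was 23 with DESeq2, 3 within COTC021, 7 within COTC022, 4 within the double-style and 7 within the single-style libraries, and from 15 to 21 with edgeR, size factors, no filter, no covariate or style as a covariate. For the library name style, 6 members were called, 0 within COTC021, 1 within COTC022, and from 4 to 9 under the others. Without the low-count filter 44.9% of all genes were called for style, against 4.72% with it. For the trial, 2 members were called with DESeq2 and 2 with edgeR, and 0 under all other alternatives. For DFI, 8 members were called, 3 when scaled to the library total, 5 without the filter, 0 with strata of trial and cluster, 0 with strata of trial and style, 0 within either style, and 7 with ranks or 9 with no strata. For OS the count was 0 under every alternative. Fewer libraries, and fewer events, enter the fits within a group. Counts given without the share of all genes under the same setting are not results about the members. Without COTC022 replicate 68, chosen after seeing the data, counts were 13 for the cluster, 7 for style, 10 for DFI and 0 for trial and OS, the median correlation was 0.38 and the median level 72.0 CPM. The median correlation ran from 0.396 to 0.437 with Spearman's rho, library totals or within a style, against 0.397, and the median level was 69.95 CPM with TMM, against 72.2. No single member named for its fold change or hazard ratio changed direction. COX6A2, COX7B2 and ATP5ME did not pass the low-count filter and have no test in the fits with that filter. Without the filter, COX7B2, with 0 counts in 121 libraries, was called for the library name style, as were ATP5MJ and UQCRC1. ATP5ME was at 0 at every depth, and the cause was not tested. Interactions were fitted 1 way only.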
